A study of Mus musculus with 8 samples.

Results

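The sites described here are chromatin regions of mouse regulatory T cells (Treg cells) whose accessibility was at least 2-fold higher without the gene Flcn. A site was taken when it lay on chromosomes 1 to 19, when each of the 4 Flcn knockout (KO) libraries had a higher level than each of the 4 wild-type (WT) libraries, when the mean KO level was at least 5 CPM (counts per 1000000 counts of the library) and when the mean KO level divided by the mean WT level was at least 2. Of 57199 accessible regions (peaks) in the study, 55591 lay on these chromosomes and 473 met all conditions. The same rule with the groups exchanged gave 410 peaks, which are called the lower sites and serve for comparison. Because the KO and WT levels themselves chose the opened sites, those levels are given as a description, with no test.

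The data come from ATAC-seq, in which a transposase cuts and tags accessible DNA, so that the count at a region rises with its openness. The KO cells came from mixed bone-marrow (BM) chimeras of the genotype Foxp3CreFlcnfl/fl, in which a Cre recombinase under control of Foxp3 deletes floxed Flcn in Treg cells, and the WT cells came from WT mixed BM chimeras. Both groups were sorted from spleen as CD45.2+ CD45.1- CD4+ cells positive for a Foxp3-YFP reporter. Both thus came from mixed chimeras and shared the gate, and each group had 4 biological replicates. Whether the WT donors also carried Cre, which exons of Flcn were floxed, and the age and host of the chimeras were not given in the sources used here.

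Treg cells are CD4+ T cells that restrain immune responses and are defined by the transcription factor Foxp3. Flcn encodes folliculin, which works with its partners Fnip1 and Fnip2 at the lysosome as a GTPase-activating protein for RagC and RagD. In this role folliculin lets mTORC1 phosphorylate the MiT/TFE transcription factors TFEB and TFE3, and without it these factors collect in the nucleus and act on lysosomal and metabolic genes through E-box motifs. Accessible sites away from gene starts are often enhancers, while those at gene starts are promoters, and a peak says that DNA is reachable without saying which protein sits there.

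Totals per library were 5111728, 3824571, 4101756 and 2723344 counts in KO, against 4914976, 4499889, 3986331 and 4122933 in WT, and did not differ beyond the spread (exact two-sided permutation test, p = 0.486, smallest possible p 0.0286). The Flcn gene had 4 peaks, none of them an opened site. The peak at chr11:59798675-59798950 had 3.13, 1.05, 1.95 and 5.88 CPM in KO, against 0, 0.444, 0 and 0 CPM in WT, and that at chr11:59799302-59799641 had 0.391, 2.35, 4.39 and 7.71 CPM in KO, against 0, 0, 0.502 and 0 CPM in WT. Both were nearly empty in WT but below the floor in KO. The other two averaged 13.3 and 5.97 CPM in KO, against 16.1 and 8.93 CPM in WT, and since the floxed exons are not given these peaks do not check the deletion.

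Of the cell type markers, with opened sites left out of every sum, all 7 T cell and Treg cell markers had a peak, and their summed level was 1208 to 1347 CPM in KO, against 1157 to 1272 CPM in WT. Ctla4 and Ikzf2 gave most of this sum. Cd3e (25.9 CPM in KO, 33.0 CPM in WT) and Cd4 (37.0 CPM in KO, 42.7 CPM in WT) were lower in KO. The other T cell and Treg cell markers were higher in KO. Of the B cell markers, Cd79b and Ms4a1 had no assigned peak, and the summed level of the rest was 85.8 to 113 CPM in KO, against 72.5 to 98.5 CPM in WT. Pax5 and Ebf1 were lower in KO, while Cd79a, Cr2 and Blk were higher. Of the myeloid markers, Adgre1, Csf1r and Lyz2 had no assigned peak, and the rest summed to 43.7 to 57.9 CPM in KO, against 52.9 to 72.0 CPM in WT. The 18 peaks of the erythroid and progenitor markers Gata1, Klf1, Kit and Tal1 summed to 147 to 178 CPM in KO, against 111 to 126 CPM in WT, without overlap (exact permutation p = 0.0286, 0.171 after Benjamini-Hochberg adjustment over 6 marker lists). The unadjusted p is the smallest this test can give. A single list that reaches it cannot have an adjusted p below 0.171, so the adjusted p decides nothing about this list. The erythroid and progenitor sum includes a Gata1 peak on chromosome X that met the other conditions of the rule, at 21.2 CPM in KO and 10.4 CPM in WT. The sum without that peak was not tested. The CD8 T cell markers summed to 21.9 to 45.5 CPM in KO, against 26.0 to 37.0 CPM in WT, and the NK cell markers to 254 to 322 CPM in KO, against 236 to 271 CPM in WT. Klrb1c gave most of the NK cell sum, at 260 CPM in KO and 220 CPM in WT. Ncr1 (3.33 CPM in KO, 3.72 CPM in WT) and Eomes (22.7 CPM in KO, 26.0 CPM in WT) were lower in KO. Klra8 was higher, at 3.73 CPM in KO and 2.82 CPM in WT. Adjusted exact permutation p-values of the 5 lists other than the erythroid and progenitor list ran from 0.171 to 0.6. The tests other than that of the B cell list were added after seeing the data. The part of such cells in the opened sites was not tested, and in bulk libraries a change in the number of cells of a type and a change in signal per cell cannot be told apart.

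Only 14 opened sites overlapped a promoter window, taken as the 250 bases before and 50 bases after a RefSeq gene start, and 4 of these promoters are shown because they bear the tallest opened site, an E-box, a forkhead motif and an AP-1 motif. The sequences are the 250 bases before the start, from RefSeq (GRCm38.p6), written 5′ to 3′ on the gene's strand, and capitals mark a motif match. The motifs searched on both strands were CACGTG (the E-box core), TCACGTGA (the longer MiT/TFE site), TGTTTAC (forkhead), TGANTCA (AP-1), CAGGAAGT (ETS), AACCACA (RUNX), GATAA (GATA, left in lower case) and the consensus of NF-kB. Hpgds lies at chr6:65144731-65144980 on the minus strand, Trpm1 at chr7:64185209-64185458 on the plus strand, Lilr4b at chr10:51480362-51480611 on the plus strand and Tbc1d14 at chr5:36530624-36530873 on the minus strand.
Hpgds: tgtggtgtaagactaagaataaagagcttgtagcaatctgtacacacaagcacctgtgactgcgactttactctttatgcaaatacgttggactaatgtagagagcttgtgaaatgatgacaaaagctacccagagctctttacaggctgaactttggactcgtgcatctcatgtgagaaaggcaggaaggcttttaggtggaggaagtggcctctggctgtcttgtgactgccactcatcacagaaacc
Trpm1: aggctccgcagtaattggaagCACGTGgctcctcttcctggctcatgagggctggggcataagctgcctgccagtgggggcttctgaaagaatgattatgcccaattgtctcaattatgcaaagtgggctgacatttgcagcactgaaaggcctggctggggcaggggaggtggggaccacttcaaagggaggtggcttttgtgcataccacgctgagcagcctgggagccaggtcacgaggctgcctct
Lilr4b: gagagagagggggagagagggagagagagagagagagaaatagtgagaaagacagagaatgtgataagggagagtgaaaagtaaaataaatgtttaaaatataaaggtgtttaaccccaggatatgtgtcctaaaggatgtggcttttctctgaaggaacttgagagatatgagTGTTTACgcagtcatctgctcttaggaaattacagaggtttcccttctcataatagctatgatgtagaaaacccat
Tbc1d14: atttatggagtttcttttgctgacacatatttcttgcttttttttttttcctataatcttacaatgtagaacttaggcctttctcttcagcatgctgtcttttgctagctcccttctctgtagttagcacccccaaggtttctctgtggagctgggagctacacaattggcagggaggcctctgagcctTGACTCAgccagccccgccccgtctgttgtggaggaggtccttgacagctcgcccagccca

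Hpgds, which encodes the prostaglandin D synthase of blood cells, held none of the capitalised motifs in this window. Its promoter peak at chr6:65144503-65145193 had 236, 172, 232 and 214 CPM in the KO libraries, against 83.2, 100, 99.8 and 87.3 CPM in the WT libraries, and was the most accessible of all opened sites in KO. Trpm1 encodes a cation channel that is a known MITF target in melanocytes, and its peak had 25.8, 18.6, 31.7 and 27.2 CPM in KO, against 11.8, 8.0, 13.8 and 16.01 CPM in WT. The E-box lay 229 bases before the Trpm1 start and was the only CACGTG in the promoter windows of opened sites. Tbc1d14, a regulator of autophagosome formation, averaged 5.80 ± 0.426 CPM in KO and 2.63 ± 0.982 CPM in WT (SD, n = 4 each). Lilr4b, a leukocyte immunoglobulin-like receptor, had 46.8, 21.4, 19.99 and 20.6 CPM in KO, against 11.8, 13.3, 8.53 and 6.31 CPM in WT. Its neighbour Lilrb4a is a near copy, so reads could be split between the pair and both levels are uncertain.

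The 14 promoter sites overlapped 18 windows of 15 genes, since some windows overlap each other. CACGTG was found in 1 of these windows, against 7.14% of all 31396 promoter windows and 10.8% of those that overlapped any peak. TCACGTGA was found in 0 of them, against 0.949% of all windows. TGTTTAC was in 4 windows, TGANTCA in 3, AACCACA in 2 and GATAA in 7, against 3.71%, 7.84%, 5.32% and 25.3% of all windows. Of the windows that overlapped any peak, 2.49%, 4.67%, 3.83% and 14.3% held these motifs. Overlapping windows counted the same AACCACA of Slfn8 and the same TGTTTAC of LOC102643083 more than once, so the counts are not of independent windows. CAGGAAGT and the NF-kB consensus were in none, against 3.34% and 0.417% of all windows. The 250 bases before the start had a median GC content of 47.6% in the windows at opened sites, 61.2% in windows at any peak and 52.4% in all windows. These matches describe letters in a window and do not show binding.

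Separation of the groups was the first condition, and 2285 peaks had every KO library above every WT library, which is 4.11% of the peaks on chromosomes 1 to 19. The converse held for 2102 peaks (3.78%). The floor of 5 CPM left 1608 and 1468 of these, and the 2-fold condition left 473 opened sites (0.851%) and 410 lower sites (0.738%). Which set was larger depended on the library: without KO replicate 1 the rule gave 637 opened and 796 lower sites, and without WT replicate 3 it gave 621 opened and 628 lower sites. edgeR's quasi-likelihood test, run over 47859 peaks with Benjamini-Hochberg adjustment, called 644 higher in KO (1.35%) and 489 lower (1.02%) at an adjusted p of 0.05. Without KO replicate 3 the higher calls numbered 426. Without KO replicate 1 there were 860 higher and 947 lower calls, and without WT replicate 2 there were 448 higher and 217 lower calls. Of the opened sites 469 entered that fit and 338 were among the higher calls, a count that nothing is read from because the same libraries chose the sites. A further 301 peaks on these chromosomes were called higher without meeting the rule.

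The thresholds cut through a continuous range. A site 992 bp from Castor1, whose product senses arginine for mTORC1, entered with a ratio of 2.003. A site 8568 bp from Samsn1, an adaptor protein of lymphocytes, missed with 1.995. A site 33458 bp from Saysd1 entered with a mean KO level of 5.02 CPM, and one 312189 bp from Adgrl2 missed with 4.99 CPM. The lowest KO level was 1.002 times the highest WT level at a site just inside, 14081 bp from Abra. It was 0.999 times that level at a site just outside, 314 bp from Gm2a. Over all opened sites the median of this quotient was 1.36, it was at least 1.5 in 177 sites, and it was at least 2 in 72 sites.

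At a cut of 2 CPM most opened sites, 409 of 473, counted as already accessible in WT. That number depends on the cut and on the rule, as given below. The mean level of the opened sites had a median of 9.25 CPM in KO and 3.50 CPM in WT. Over all peaks on these chromosomes the medians were 6.74 CPM in KO and 6.66 CPM in WT. Thus 346 sites (73.2%) reached the median peak in KO, against 86 in WT. The ratio of KO to WT ran over 2.003 to 33.5 with a median of 2.50, and it was at least 3 in 132 sites, at least 5 in 41 and at least 10 in 7. The opened sites in sum held 0.593% to 0.687% of the counts in KO libraries, against 0.218% to 0.259% in WT libraries.

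By their starting level in WT, 64 sites (13.5%) were closed, defined as a mean below 2 CPM, and 409 were open. Of all peaks on these chromosomes 12.2% had a WT mean below 2 CPM. That share is over peaks that met no floor on the KO level, so its nearness to the closed share is not read as a result. As shares of the 473, 263 sites (55.6%) began at 2 to 5 CPM, 106 (22.4%) at 5 to 10 CPM and 40 (8.46%) at 10 CPM or more. These classes held 28.7%, 20.7% and 38.4% of all peaks. Ratios were similar across the open classes, with medians of 2.45, 2.35 and 2.33, while closed sites had a median of 4.72. The floor obliges a closed site to be more than 2.5-fold, so the rule itself sets part of this gap and limits the number of closed starts. With a cut of 3 CPM, 195 sites counted as closed. Among the lower sites 110 (26.8%) had a KO mean below 2 CPM. Over all lower sites with a KO mean above 0, closed or not, the median WT to KO ratio was 2.77. None of the closed sites was at 0 in all WT libraries, and 13 had at least 1 WT library at 0.

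**Figure D1:**
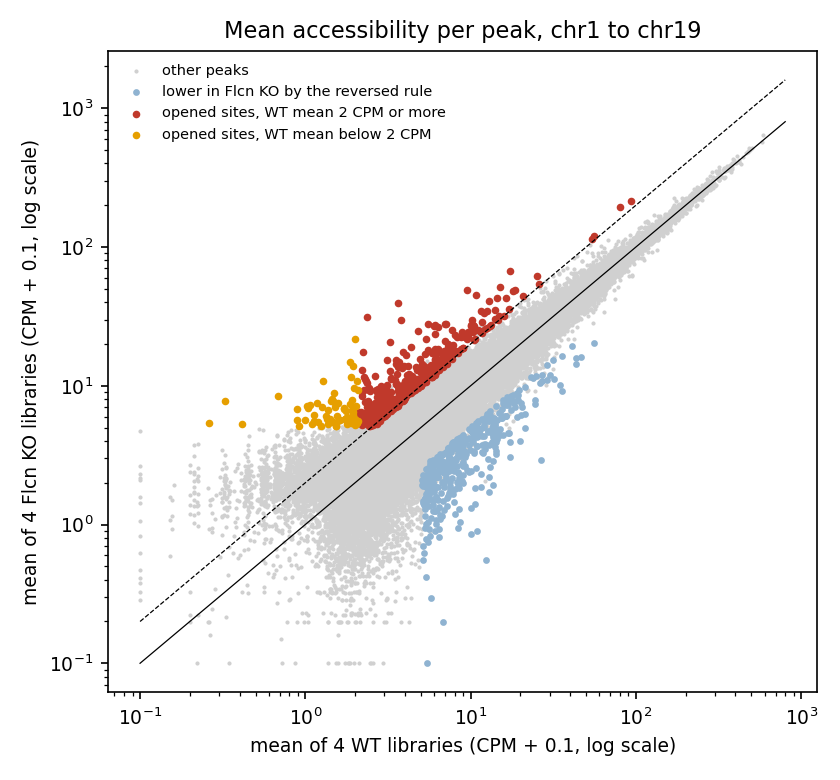
Mean accessibility of peaks on chromosomes 1 to 19, with the mean of 4 Flcn KO libraries on the vertical axis and the mean of 4 WT libraries on the horizontal axis, both in CPM with 0.1 added and on log scales. The 473 opened sites lie above the diagonal from closed starts to WT levels near 92.7 CPM, and the lower sites lie below it.

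The most open of the closed-start sites in KO was at Fgf5, which encodes a fibroblast growth factor best known from the hair cycle. At chr5:98268770-98269169 it had 39.1, 9.94, 21.9 and 16.2 CPM in KO, against 2.44, 2.67, 2.01 and 0.485 CPM in WT. The KO libraries spread widely, and the rule itself required that they lie above the WT libraries. A site 191 kb from Gfra2 had 10.6, 15.2, 19.02 and 13.95 CPM in KO, against 0.814, 1.78, 2.51 and 1.94 CPM in WT, and belongs to a stretch described with the clusters. A site 12.5 kb from Tex15, known for its role in meiosis, averaged 13.8 ± 3.46 CPM in KO and 1.85 ± 1.72 CPM in WT. Me2, a mitochondrial malic enzyme, averaged 11.4 CPM in KO and 1.79 CPM in WT.

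The largest ratios among closed starts rested on very few WT counts. A second site inside Fnip2, at chr3:79468165-79468534, held 30, 20, 14 and 18 counts in KO, against 2, 0, 0 and 1 in WT, a ratio of 32.5. A site 2.91 kb from Ttc32 averaged 7.61 CPM in KO and 0.227 CPM in WT, a ratio of 33.5. A site 428 kb from Hs6st1, a heparan sulfate sulfotransferase, had 9.78, 9.41, 9.26 and 5.14 CPM in KO, against 0, 1.33, 1.003 and 0 CPM in WT. With counts this low the exact ratio is loosely determined.

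Further closed starts had KO levels near that of the median opened site. Dipk1a averaged 10.7 CPM in KO and 1.95 CPM in WT. A site 26.0 kb from Aadacl2fm2 averaged 9.20 CPM in KO and 1.99 CPM in WT. A site 341 kb from Negr1, a neural adhesion protein, averaged 9.50 CPM in KO and 1.87 CPM in WT. A site 257 kb from Sox6, a transcription factor of cartilage, muscle and red cell development, averaged 8.75 CPM in KO and 1.39 CPM in WT.

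Among sites already open in WT, the largest ratio was at a remote site on chr6:10690468-10690938, 1209 kb from the nearest gene, Ndufa4. It had 30.9, 34.0, 19.99 and 38.9 CPM in KO, against 0.814, 0.444, 2.01 and 5.82 CPM in WT, a ratio of 13.6. WT replicate 4 was the highest of the WT libraries and the others were at or below 2.01 CPM. Col27a1, a fibrillar collagen, had 36.8, 38.2, 50.7 and 31.6 CPM in KO, against 2.44, 5.33, 4.01 and 2.43 CPM in WT at chr4:63222132-63222869. The lowest KO library was well above the highest WT library there. A second Col27a1 site averaged 10.0 ± 3.51 CPM in KO and 3.03 ± 1.096 CPM in WT. The main site in Fnip2, whose product is a partner of folliculin, had 33.3, 29.8, 33.6 and 22.8 CPM in KO, against 2.03, 5.33, 6.02 and 1.46 CPM in WT at chr3:79491579-79492091. The groups were several-fold apart there in every pairing of a KO with a WT library, and the weaker Fnip2 site lay inside the same gene.

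Other open starts with large ratios included Frmpd1, a scaffold protein with FERM and PDZ domains, at 17.4 ± 1.80 CPM in KO and 2.13 ± 0.754 CPM in WT. A site 60.2 kb from Lrpap1, a chaperone of lipoprotein receptors, averaged 48.9 ± 7.84 CPM in KO and 9.37 ± 2.31 CPM in WT. The site 66.9 kb from Sik1, a salt-inducible kinase, had a ratio of 6.17. That at Fam167a had 5.29, and that 18.6 kb from Rttn, a centriole protein, had 5.17.

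The 10 sites with the highest KO levels had ratios from 2.099 to 5.22, the highest at Lrpap1. After Hpgds came Bhlhe40, a basic helix-loop-helix factor that shapes effector and tissue T cells, with 179, 183, 220 and 198 CPM in KO, against 86.9, 88.0, 72.2 and 74.5 CPM in WT. Slc39a10, a zinc importer, had 113, 103, 127 and 139 CPM in KO, against 44.2, 53.3, 67.2 and 58.2 CPM in WT. A site 193 kb from Setbp1 averaged 114 ± 25.2 CPM in KO and 53.9 ± 3.28 CPM in WT. All of these were among the more accessible peaks in WT too. Their replicates varied within groups, with 85.5 to 146 CPM at the Setbp1 site in KO.

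Otulin, a deubiquitinase that removes linear ubiquitin chains and limits NF-kB signalling, had 71.4, 57.0, 75.6 and 63.9 CPM in KO, against 10.2, 19.6, 18.1 and 20.9 CPM in WT. Tnrc6a, a scaffold of microRNA silencing, had 40.3, 43.7, 40.5 and 38.2 CPM in KO, against 10.2, 15.6, 12.5 and 13.1 CPM in WT, with close replicates in both groups. Pkp4, a junction protein of the plakophilin family, had 69.6, 50.2, 59.5 and 66.8 CPM in KO, against 23.2, 29.8, 25.1 and 22.3 CPM in WT. A site 182 kb from P2ry1, an ADP receptor, averaged 48.6 ± 10.1 CPM in KO and 18.3 ± 1.06 CPM in WT. A site 135 kb from Kit, the stem cell factor receptor, had 55.9, 38.2, 62.9 and 48.8 CPM in KO, against 11.8, 20.4, 14.5 and 13.1 CPM in WT. A weaker site inside Kit averaged 5.75 ± 1.87 CPM in KO and 2.19 ± 0.486 CPM in WT. Kit is also on the progenitor marker list, whose other peaks summed higher in KO as given above.

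**Figure D2:**
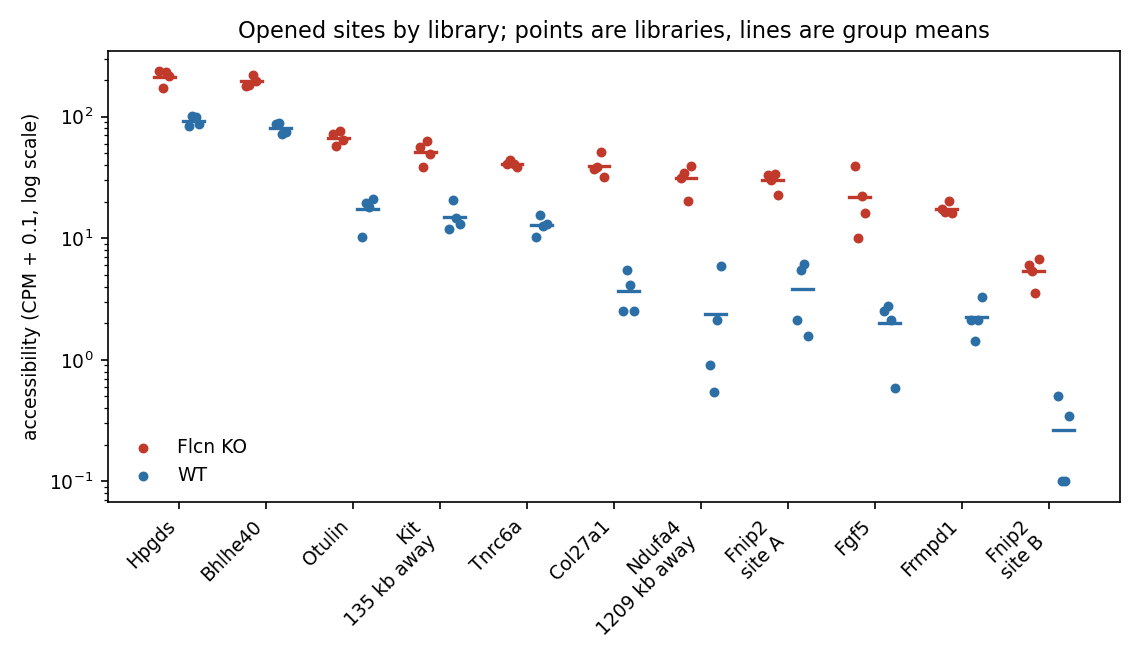
Accessibility of named opened sites in each library, in CPM with 0.1 added on a log scale, with Flcn KO libraries left of WT libraries at each site. The KO points of every site lie above its WT points, from closed starts such as Fgf5 to Hpgds with its KO mean of 213 CPM.

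Opened sites lay away from promoters. Of the 473, 267 (56.4%) were inside a protein-coding gene, 119 (25.2%) were outside but within 50 kb, and 87 (18.4%) were farther away. Peaks of like KO level were other peaks whose mean KO level lay within the quartiles of the opened sites, 6.62 to 14.4 CPM. Opened sites outside that range were kept, so the sets are not fully matched. Of the peaks of like level, 62.6% were inside a gene and 9.70% lay beyond 50 kb. Only 26 opened sites (5.50%) were within 1 kb of a gene end and 14 (2.96%) overlapped a promoter window, against 19.6% and 12.9% of the peaks of like level. The median distance to the nearest gene start was 23.7 kb at opened sites, against 13.0 kb at peaks of like level. No gene starts on chromosome 18 were available, so its peaks, 13 opened sites among them, count as outside promoter windows in every set. They also entered the distances as if at a gene start, so the medians and promoter shares may be too low. The lower sites were placed much like the opened ones, with 53.4% inside a gene, 18.3% beyond 50 kb, 3.90% in a promoter window and a median distance of 24.7 kb. Closed starts lay beyond 50 kb in 28.1% of cases (18 of 64), against 16.9% of open starts (69 of 409). The annotation used gives gene spans, so that exons and introns were not distinguished.

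**Figure D3:**
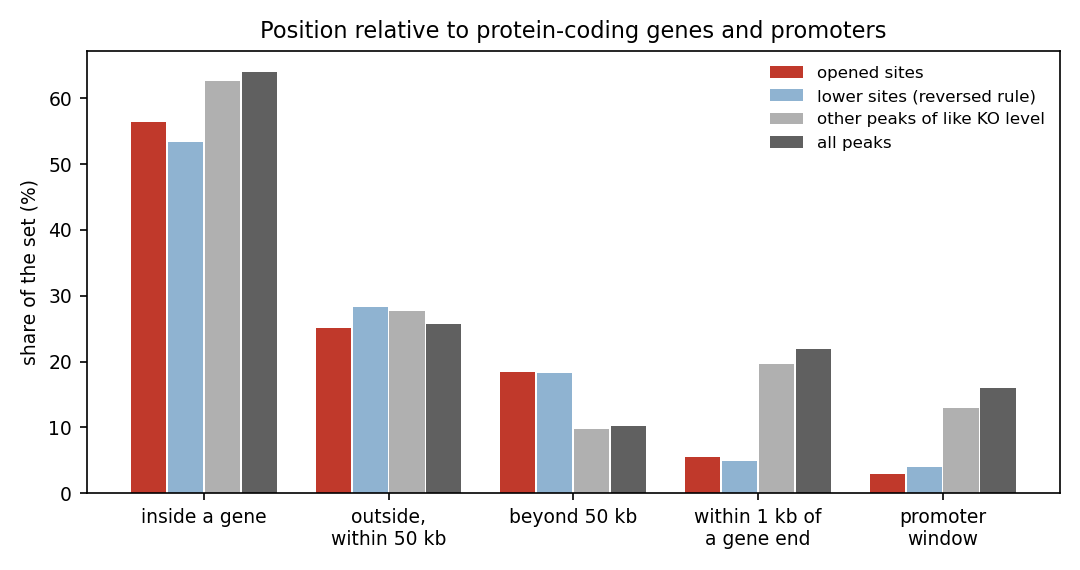
Share of sites, in percent, in each position class for the opened sites, the lower sites, peaks of like KO level and all peaks on chromosomes 1 to 19. Peaks of like KO level are other peaks with a mean KO level of 6.62 to 14.4 CPM, the quartiles of the opened sites. Opened and lower sites share a low proportion near gene ends and a high proportion beyond 50 kb from any gene. Peaks on chromosome 18, where no gene starts were available, count as outside promoter windows.

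Among the 26 sites within 1 kb of a gene end, Hpgds had the highest level. Mt1, a metallothionein that binds zinc and other metals, had 18.8, 14.1, 9.51 and 8.81 CPM in KO, against 5.70, 4.44, 4.52 and 6.31 CPM in WT. Cd200r4, a member of the CD200 receptor family, averaged 15.6 CPM in KO and 6.11 CPM in WT. Mbip averaged 14.4 CPM in KO and 6.84 CPM in WT. A site 904 bp from Ctnnb1, which encodes beta-catenin, averaged 10.8 CPM in KO and 3.91 CPM in WT.

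Opened sites were uneven over the chromosomes. Chromosome 14 had the highest share, with 35 of its 2338 peaks (1.497%), and chromosome 6 had 42 of 3310 (1.27%). Chromosome 15 had the lowest, with 10 of 2429 (0.412%). Of the 35 sites on chromosome 14, 8 and 7 lay in a pair of stretches described with the clusters. The lower sites were uneven too, with shares from 0.273% on chromosome 11 to 1.157% on chromosome 16 and 0.428% on chromosome 14.

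Opened sites also lay close to each other. When sites at most 10 kb apart were joined, 53 of the 473 (11.2%) fell in 25 runs of 2 or more, of which 3 held 3 sites. Of the 410 lower sites 12 (2.93%) fell in 6 runs, none of 3 sites. With a gap of 100 kb the shares were 27.3% (129) and 18.8% (77), and the longest chain held 8 opened sites but 3 lower sites. Whether this clustering exceeds what peak density gives was not tested.

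Of the runs of 3 sites, the ones described here lay 140 kb from Hmga2 and near Rpia. The sites near Hmga2, an architectural chromatin protein of embryonic and stem cells, lay on chr10:120616512-120628504 and summed to 114 CPM in KO and 44.3 CPM in WT. At the tallest of them the KO libraries had 74.1, 35.3, 66.3 and 40.4 CPM, against 33.2, 29.3, 21.1 and 19.4 CPM in WT. KO replicates 1 and 3 were above KO replicates 2 and 4 at all 3 Hmga2 sites. The sites near Rpia, an enzyme of the pentose phosphate pathway, lay within 1.895 kb on chr6:70813962-70815856 and summed to 72.9 CPM in KO and 19.9 CPM in WT. The strongest of these had 49.7, 49.2, 37.3 and 34.5 CPM in KO, against 10.6, 12, 21.6 and 13.6 CPM in WT. A peak farther on in the same chain did not share the difference, with 320 CPM in KO and 333 CPM in WT.

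The stretches with the most opened sites were both on chromosome 14 and were picked out after their values were seen. Beside Gfra2, a receptor for the neurotrophic factor neurturin, 8 of 12 peaks over 209 kb (chr14:70962000-71171125) were opened sites, with ratios of 2.24 to 8.34. These 8 summed to 114 CPM in KO and 36.8 CPM in WT, and 3 of the other 4 peaks were also higher in KO. The largest ratio was at the end of the stretch farthest from Gfra2. In and beyond Atp8a2, a phospholipid flippase of neurons and testis, 7 of 11 peaks over 235 kb (chr14:59943276-60177875) were opened sites, with ratios of 2.13 to 5.93. These 7 summed to 60.5 CPM in KO and 20.8 CPM in WT, and all 4 others were higher in KO with lesser ratios. The tallest peak there, not an opened site, had 63.8 ± 3.37 CPM in KO and 49.3 ± 6.39 CPM in WT.

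**Figure D4:**
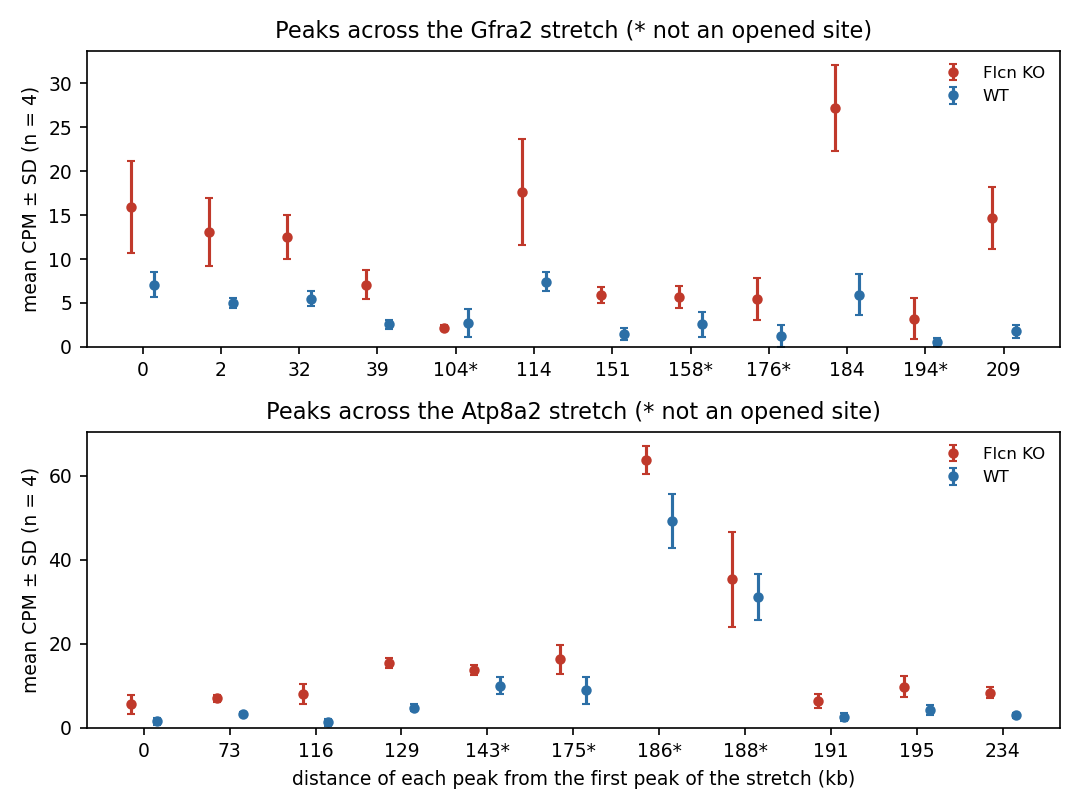
Mean accessibility in CPM (points, with SD over 4 libraries) of every peak in the Gfra2 stretch and the Atp8a2 stretch, against distance in kb from the first peak, with stars on peaks that are not opened sites, for Flcn KO and WT. Opened sites and the peaks between them mostly have the KO mean above the WT mean, and the tallest Atp8a2 peaks, which are not opened sites, have lower ratios than the opened sites.

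Peaks that were neither opened nor lower sites were also examined by their distance to the nearest opened site. Within 2 kb, 76.7% of 120 such peaks were higher in KO, with a median log2 ratio (0.5 CPM added) of 0.30. The share was 64.6% at 5 to 10 kb, 60.1% at 25 to 50 kb and 51.5% at 100 to 500 kb, where the median log2 ratio was 0.01. Around the lower sites the values mirrored these, with 28.3% of the peaks within 2 kb higher in KO and a median of -0.19. Neighbouring peaks can share fragments, and the part of this in the nearest classes was not tested.

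**Figure D5:**
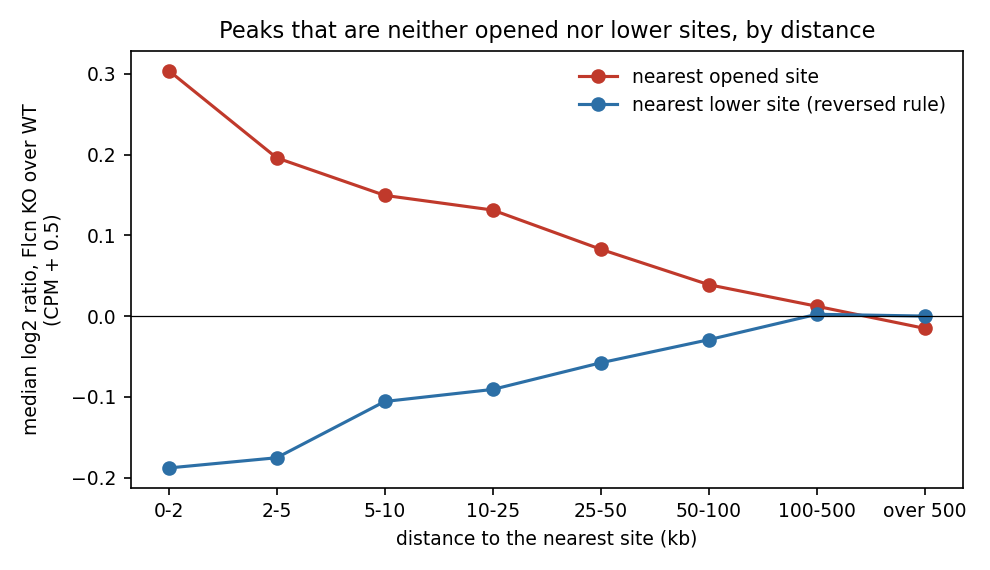
Median log2 ratio of Flcn KO over WT (0.5 CPM added) of peaks that are neither opened nor lower sites, by distance class to the nearest opened site and to the nearest lower site. The ratio near opened sites is 0.30 within 2 kb and 0.01 at 100 to 500 kb, and the ratio near lower sites is -0.19 within 2 kb.

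The 386 opened sites inside or within 50 kb of a gene belonged to 343 genes, of which 34 had at least 2. Atp8a2 had 5 of its 11 peaks, Gfra2 4 of 5, Pkp4 3 of 12, Rpia 3 of 13 and St6gal1, a sialyltransferase, 3 of 32. Klrk1, which encodes the activating receptor NKG2D, had both of its peaks, at 28.4, 17.3, 35.6 and 26.4 CPM in KO, against 13.4, 9.33, 10.0 and 8.73 CPM in WT for the stronger. Bank1, a scaffold of B cell receptor signalling, had 2 opened sites among 7 peaks, and the stronger averaged 33.1 ± 3.62 CPM in KO and 11.99 ± 4.93 CPM in WT. Cd36, a fatty acid receptor, had 2 of 3 peaks at low levels, and the stronger averaged 6.19 ± 2.95 CPM in KO and 2.49 ± 1.42 CPM in WT. Of all 49881 peaks within 50 kb of a gene, 0.774% were opened sites and 335 peaks were lower sites.

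By function, the list of folliculin, MiT/TFE, mTORC1 and AMPK genes had 4 opened sites among 134 peaks (2.99%) and no lower site. Lower sites were 335 of all 49881 peaks near genes, so their absence from a list of this size is not read as a result. The opened sites were the Fnip2 pair, the Castor1 site and a site of Ppargc1a, a coactivator of mitochondrial biogenesis. The Castor1 site had 11.9 CPM in KO and 5.95 CPM in WT, and the Ppargc1a site 7.90 CPM in KO and 3.11 CPM in WT. Lysosome and autophagy genes had 0 opened sites among 169 peaks, where edgeR called 1 peak higher (0.709%) and 0 lower of 141 tested, against 1.22% called higher of all tested peaks near genes. Apoptosis genes also had 0, among 135 peaks. No lower site lay in either list. At the 0.774% of all peaks near genes, lists of these sizes hold few or no opened sites, so these counts are not read as a result. The mitochondrial and metabolic list had 3 lower sites and 5 opened sites of 194 peaks (2.58%), of which 3 were the Rpia run. The others were at Yme1l1, a protease of the inner membrane, at 17.2 CPM in KO and 5.74 CPM in WT, and at Sdhb, a subunit of succinate dehydrogenase, at 6.33 CPM in KO and 2.01 CPM in WT.

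The lists of T cell function each held 1 or 2 opened sites, as shares of 0.267% to 1.0% around the 0.774% of all peaks near genes. Treg identity genes had 2 of 215 peaks (0.930%) and 4 lower sites. A site 17.2 kb from Ikzf2, the factor Helios, averaged 15.4 CPM in KO and 7.09 CPM in WT, and a site of Dusp4, a MAP kinase phosphatase, averaged 17.1 CPM in KO and 8.29 CPM in WT. Effector and tissue Treg genes had 2 of 200 (1.0%) and 5 lower sites. Besides the Bhlhe40 site, a site 4.79 kb from Il1rl1, the IL-33 receptor, averaged 15.3 CPM in KO and 6.48 CPM in WT. Cytokine genes had 6 lower sites and 2 opened sites of 221 peaks (0.905%). The opened sites were at Il12rb2, an IL-12 receptor chain (10.1 CPM in KO, 3.81 CPM in WT), and at Tgfbr2, a TGF-beta receptor (7.61 CPM in KO, 3.17 CPM in WT). Chemokine receptor and integrin genes had 1 of 170, at Cx3cr1, and T cell receptor genes had 1 of 355, at the kinase gene Lck. Each of those lists had 3 lower sites. The naive T cell list had no lower site and 1 opened site of 374, at Pik3ip1 (15.4 CPM in KO, 5.97 CPM in WT), an inhibitor of PI3K. T cell transcription factors had 3 lower sites and 2 opened sites of 398 peaks (0.503%). The opened sites were at the zinc-finger factors Bcl11b and Ikzf1, which averaged 9.78 and 6.98 CPM in KO, against 4.88 and 2.97 CPM in WT.

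The list of collagens, matrix and growth factors had 4 of 133 peaks (3.01%), a share close to those of the folliculin and metabolic lists, and the list of neuronal adhesion, guidance and synapse genes had 7 of 144 (4.86%). These matrix and neuronal lists had 1 and 2 lower sites. No list was tested against another. Of the 7 neuronal sites 4 were the Gfra2 sites. Pcdh7, a protocadherin, averaged 14.6 CPM in KO and 6.03 CPM in WT, Ctnnd2, delta-catenin, 9.23 CPM in KO and 4.08 CPM in WT, and Nrxn3, a neurexin, 6.26 CPM in KO and 2.66 CPM in WT. The matrix and growth factor sites were the Col27a1 pair, Fgf5 and Fgfr1, a growth factor receptor (6.56 CPM in KO, 2.63 CPM in WT). The 13 lists were drawn up with earlier results of these data known, and their median log2 ratios ran from -0.05 to 0.11.

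Flcn itself lies on chromosome 11. Within 2 Mb of it 5 of 181 peaks (2.76%) were opened sites and 1 was a lower site, and beyond 10 Mb on that chromosome 11 of 2655 (0.414%) were opened sites. The 5 were at Cnot8 (18.4 CPM in KO, 6.21 CPM in WT), Gemin5 (9.72 CPM in KO, 3.94 CPM in WT), 4930438A08Rik (11.5 CPM in KO, 5.68 CPM in WT) and, with 2 sites, Trim58, whose stronger site averaged 18.7 CPM in KO and 8.86 CPM in WT.

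Over the opened sites, which the rule chose on these same libraries, the median level was 9.39, 8.89, 9.75 and 9.91 CPM in KO replicates 1 to 4, against 3.26, 3.56, 3.51 and 3.40 CPM in WT replicates 1 to 4. The coefficient of variation had a median of 25.1% in KO and 31.7% in WT, and among closed starts of 30.0% in KO and 52.8% in WT, where a site held few counts. The highest of the KO libraries was replicate 3 at 151 sites and replicate 2 at 71, so that no 1 library led throughout. The median count behind a site was 48, 34, 40 and 27 in KO, against 16, 16, 14 and 14 in WT.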

How the data were processed

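ATAC-seq was measured in 8 libraries, 4 per group. The values are raw counts per peak deposited by the authors as 1 table of 57199 peaks. The submitters' processing notes name MACS2 2.1.1, BWA 0.7.16, bedtools 2.25.0, Trimmomatic 0.36, SAMtools 1.9 and Picard 2.9.4, with build mm10. Filters, the handling of duplicates and whether peaks were called on pooled libraries were not given in the sources used here. In each library 88.7% to 92.7% of the counts were even, so a fragment may often add 2 counts. No library pair was a copy of another.

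CPM was each count divided by its column total, times 1000000. The opened sites were the rows meeting the rule stated at the start. The sites and all gene lists were chosen with earlier results of these data known. Named sites were the 10 with the highest ratio among open starts, the 10 with the highest KO mean, the 10 closed starts with the highest KO mean, the 10 highest near a gene end, runs of 3, the 5 genes with the most sites, up to 8 sites per list and those nearest the thresholds. Other sites were named after their values were seen: further genes with 2 or more sites, those near Flcn, those with very few WT counts and the promoter examples. The closest protein-coding gene span named each site (RefSeq GRCm38.p6, 21887 genes). Starts were converted to count from 1.

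Background calls used edgeR 4.0.16 quasi-likelihood tests with TMM and a minimum count of 10 in R 4.3.3, tested on simulated data, and single sums used exact two-sided permutation tests. Replicate numbers were not used to pair libraries. DESeq2 1.42.0 and limma 3.58.1 served as alternatives, with other scalings, floors, ratios, windows and gaps and with each library left out. Precision is limited by the 2723344 to 5111728 counts per library. Sites outside chromosomes 1 to 19 were not among the opened sites. Some named sites and marker genes are not reported here, and such marker genes were left out of the marker sums.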

Additional observations from a re-analysis of the deposited data

Results flagged for a closer look

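Among 154 groups of 4 libraries examined for a single library far from the other 3, 9 were picked out, and about 1 in 20 is reached by chance. In KO, a single library stood high at Lilr4b (replicate 1, 46.8 CPM), Fgfr1 (replicate 1, 8.999 CPM), Pik3ip1 (replicate 3, 18.5 CPM), Lck (replicate 4, 14.7 CPM) and Ctnnb1 (replicate 4, 13.2 CPM). A single KO library stood low at the Hs6st1 site (replicate 4, 5.14 CPM) and at an Atp8a2 site (replicate 2, 13.6 CPM). In WT, replicate 1 stood high at Tgfbr2 (5.09 CPM). The summed B cell marker peaks stood high in KO replicate 1, at 113 CPM.

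On chromosome X, outside the chromosomes of the rule, 2 peaks met its other conditions. A peak 1187 bp from Gata1, an erythroid and mast cell factor, at chrX:7977850-7978337 averaged 21.2 CPM in KO and 10.4 CPM in WT. That peak is also part of the erythroid and progenitor marker sum. A peak at chrX:167050314-167050755, 156 kb from Tmsb4x, averaged 5.08 CPM in KO and 2.14 CPM in WT.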

How the results depend on the processing

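The 473 opened sites numbered 484 with TMM scaling (470 shared) and 471 with DESeq2 size factors (468 shared). A floor of 3 CPM gave 727 and of 10 CPM 208, and a ratio of 1.5 gave 1049 and of 3 gave 132. With 1 library left out the rule gave 519 to 637 sites, of which 411 to 437 were among the 473. Closed starts numbered 12 below 1 CPM, 195 below 3 CPM and 71 to 85 with 1 library left out. The lower sites ranged over 341 to 796 with 1 library left out, with 796 without KO replicate 1 and 628 without WT replicate 3. A 2 kb window at gene ends gave 44 sites and the promoter window, chosen after seeing the data, 14. Clustered sites numbered 99 with a 50 kb gap and 129 with a 100 kb gap. The median ratio of the same 473 sites was 2.48 to 2.58 under the scalings and with 1 library left out, which shows no stability because the rule chose them on these libraries. edgeR's higher calls ranged over 426 (without KO replicate 3) to 860 (without KO replicate 1), and members called over 257 to 346 with 1 library left out. The replicate block gave 736 higher calls, 349 of them opened sites, but same-numbered libraries did not deviate together (correlations -0.05 to 0.08). The cause of these shifts was not tested. Sites with few WT counts have loosely determined ratios. Exact tests with 7 libraries cannot pass 0.05, so the erythroid sum's p of 0.0571 there says nothing about stability.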
